A study of Homo sapiens with 6 samples.

Results

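MSH6, MSH3, PMS2 and PMS1 are 4 genes of DNA mismatch repair. They were taken from the count table of a pooled CRISPR knockout screen by their gene symbol alone, and they are 4 of the 7093 genes in the table. Each had 10 guides, so 40 of 71526 gene-targeting guides belong to them, and all 40 passed the filter on library counts. The screen was run in HAP1, an established human line with a nearly haploid genome that goes back to a leukaemia. SETD2-mutant HAP1 cells, which by the series title lack the function of the enzyme that trimethylates lysine 36 of histone H3, were grown in parallel with parental HAP1 cells, which differ in the labels only by the genotype. Both lines received the guide virus at a multiplicity of infection of 0.7 and were then divided into 2 samples each, kept under puromycin for 12 doublings. The third group is 2 samples of the guide library, whose stage of sampling the labels do not describe. The labels give 1 SETD2-mutant genotype and no number of clones, so a property of the clone and the SETD2 genotype cannot be told apart.

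Mismatch repair corrects mispaired bases and small insertion or deletion loops that the replicative polymerases leave behind. A MutS dimer finds the mismatch: the dimer with MSH6 binds base mispairs and the smallest loops, and the dimer with MSH3 binds larger loops. A MutL dimer is then recruited, in which PMS2 carries the endonuclease activity that nicks the new strand, whereas the role of PMS1 in human mismatch repair is less clear. MSH6 also has a PWWP domain that binds H3K36me3, the mark placed by SETD2, which is why these genes are of interest in a SETD2-mutant line. Cells that lose mismatch repair accumulate mutations and tolerate some DNA-damaging drugs, but they are viable.

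SETD2-mutant samples had total counts of 25082426 and 33878004, parental samples of 38197301 and 34003792, and library samples of 38428425 and 34679351. The lowest count of any of the 40 guides was 202 in the shallowest sample, SETD2-mutant replicate 1, so no value of the 4 genes rests on a few reads. The chi-square per degree of freedom between the 2 samples of a group was 12.9 for SETD2-mutant cells, 14.1 for parental cells and 1.37 for the library, where counting error alone gives about 1. Each line was transduced once before it was divided, so all p-values speak only of the spread among these samples and not of repeated transductions. As the check on the labels, SETD2 itself stood at −0.64 and −0.58 in SETD2-mutant cells and at −1.08 and −1.17 in parental cells, as mean log2 change from library over its guides, a difference between the lines of 0.50 (standard error over guides, SE, 0.216, adjusted p = 0.00626 by edgeR and rank aggregation). Within the SETD2-mutant line the SETD2 guides were themselves lower than library by limma on gene means (−0.61, adjusted p = 0.000156), and rank aggregation did not call them depleted there (adjusted p = 0.738). NSD1, the H3K36 methyltransferase of the series title, stood at −0.95 and −0.98 in SETD2-mutant cells and at 0.75 and 0.82 in parental cells, a difference of −1.77 (SE 0.264, adjusted p = 8.82e-09 by edgeR and rank aggregation).

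Between the lines, the guides of MSH6, PMS2 and PMS1 were slightly more abundant in SETD2-mutant than in parental cells, and those of MSH3 were level. The differences were 0.20 (SE over 10 guides 0.109) for MSH6, 0.20 (SE 0.157) for PMS2, 0.19 (SE 0.0735) for PMS1 and 0.0023 (SE 0.122) for MSH3 on the log2 scale. They lie at the 84.3rd, 85.0th, 84.1st and 56.9th percentile of all 7090 genes tested. Robust rank aggregation (RRA) of the edgeR guide tests, adjusted over all genes, called 0 of the 4 genes enriched and 0 depleted at an adjusted p below 0.05. It called 1.03% of all genes enriched and 1.28% depleted.

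MSH6 lies on chromosome 2 at 47783145 to 47810101 of GRCh38. Its guides held 14750 and 20137 counts in the SETD2-mutant samples, 18724 and 17671 in those of the parental line and 21929 and 20347 in the library. As mean log2 change from library over the 10 guides, this gives −0.00097 and 0.035 in SETD2-mutant cells, −0.23 and −0.13 in parental cells. Both SETD2-mutant samples stood at the library level and above both parental samples. The RRA p for enrichment in SETD2-mutant cells was 0.0138 before adjustment and 0.417 after it.

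The MSH6 guides differed among themselves less than those of most genes, with a standard deviation of 0.345 between the lines, at the 10.2nd percentile, but not all had the same sign. In 6 of 10 guides both SETD2-mutant samples were above both parental samples and in 2 they were below. Guide HZD_EPI_04373 had 2043 and 2720 counts in SETD2-mutant cells, 2028 and 1648 in parental cells and 2559 and 2442 in the library, a difference between the lines of 0.66 (adjusted p = 0.00224 by edgeR). Guide HZD_EPI_04371 had 1846 and 2479 counts in SETD2-mutant cells, 1733 and 1773 in parental cells and 1718 and 1665 in the library, a difference of 0.58 (adjusted p = 0.00623 by edgeR). These 2 guides had the largest differences of the gene. Guide HZD_EPI_04365 was the lowest in parental cells, with 887 and 1102 counts in SETD2-mutant cells, 968 and 908 in parental cells and 1831 and 1716 in the library. It was below library in all 4 cell samples, with a difference between the lines of 0.37 (adjusted p = 0.0334 by edgeR). Guide HZD_EPI_04366 went the other way, with 918 and 1549 counts in SETD2-mutant cells, 1996 and 1810 in parental cells and 2241 and 2069 in the library, a difference of −0.37 (adjusted p = 0.0488 by edgeR).

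By the edgeR test of single guides, 5 of 10 MSH6 guides were higher in SETD2-mutant cells and 1 was lower. Of all 71570 guides tested, dummyguide guides included, 11.5% were higher and 12.8% lower. The MSH6 guides carry the name prefix HZD_EPI and those of the other 3 genes HZD_DDR, prefixes whose guides had median library counts of 659.5 and 722.5. The MSH6 guides were among the most abundant of the library, with mean library counts of 1651 to 2925 per guide, and the gene ranked 2 of 7090 by mean library count. Among the 470 guides with at least the library count of the lowest MSH6 guide, 15.1% were higher and 17.2% lower. The part of depth in the guide calls was not tested further, and its part in the small spread among the MSH6 guides was not tested.

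MSH3 lies on chromosome 5 at 80654652 to 80876815. Its guides held 4514 and 6478 counts in SETD2-mutant cells, 6690 and 6232 in parental cells and 8445 and 7618 in the library. Its mean change from library was −0.39 and −0.27 in SETD2-mutant cells and −0.37 and −0.28 in parental cells, so the values of the lines overlapped. The sign of its difference between the lines turned without parental replicate 1 (−0.032) or SETD2-mutant replicate 2 (−0.071). Scaling on the 100 guides labelled dummyguide gave −0.15 and put the median of all genes at −0.18, against −0.038 with TMM factors. MSH3 stood 0.039 above that median, against 0.040 before, as a change of scaling shifts all genes nearly alike. The 95% interval of the difference, from limma on gene means, was −0.16 to 0.15, so a difference of the size seen for NSD1 lies far outside it. That interval holds the spread between samples and not that among the guides (SE over guides 0.122).

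**Figure D1:**
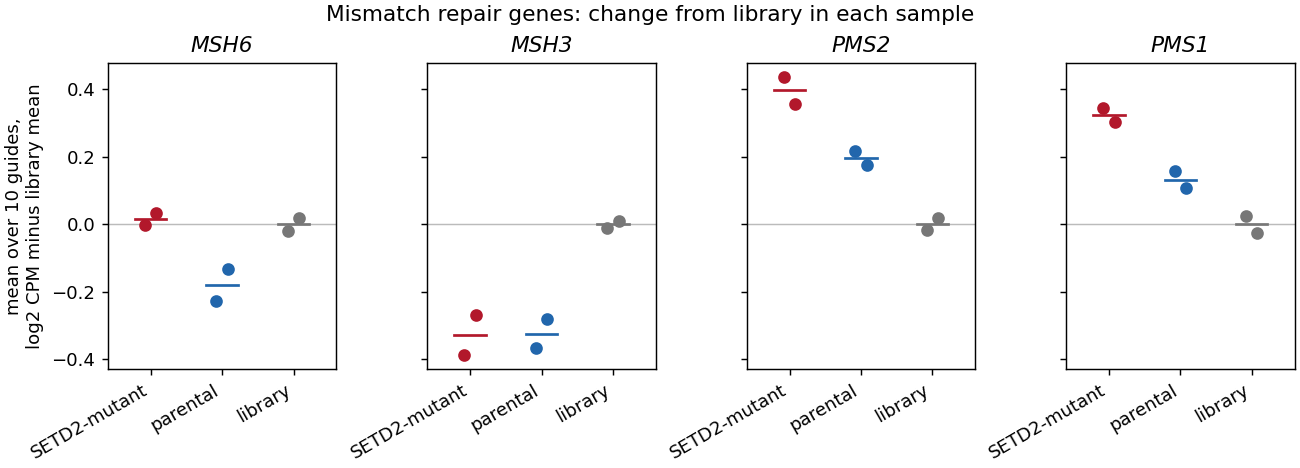
Mean over the 10 guides of each gene of log2 CPM (counts scaled by library size) minus the mean of the library samples (vertical axis), for the 2 samples of SETD2-mutant cells, parental cells and library (points, with the group mean as a line). The SETD2-mutant points of MSH6, PMS2 and PMS1 lie above their parental points, and those of MSH3 overlap.

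PMS2 lies on chromosome 7 at 5970925 to 6009106. Near-identical pseudogene copies of PMS2 exist in the human genome, and how many sites each guide cuts was not analysed here. Its guides held 7559 and 10144 counts in SETD2-mutant cells, 9637 and 8396 in parental cells and 7574 and 7006 in the library. Its mean change from library was 0.44 and 0.36 in SETD2-mutant cells and 0.22 and 0.17 in parental cells. Both SETD2-mutant samples were above both parental samples. The RRA p for enrichment in SETD2-mutant cells was 0.0208 before adjustment and 0.493 after it. The 22 other measured genes within 5 Mb of PMS2 had a median difference between the lines of 0.16, against −0.038 over all genes, and relative to these neighbours PMS2 stood at 0.040. The part of the region in the PMS2 difference was not tested.

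PMS1 lies on chromosome 2 at 189784450 to 189877629. Its guides held 7066 and 9218 counts in SETD2-mutant cells, 9655 and 8045 in parental cells and 8397 and 7381 in the library. Its mean change from library was 0.34 and 0.30 in SETD2-mutant cells and 0.16 and 0.11 in parental cells, again without overlap. The 16 other measured genes within 5 Mb of PMS1 had a median change from library of 0.045 in SETD2-mutant cells and 0.23 in parental cells. Relative to them the parental change of PMS1 turned to −0.094, against 0.13 before. The part of the region in the PMS1 values was not tested. The guides of PMS1 differed little among themselves in the comparison of the lines: 8 of 10 were above 0 and their standard deviation was 0.232, in the lowest 1.31% of all genes, whose median was 0.560. Genes were not matched for depth here, and PMS1 was at the 90.0th percentile of genes by mean library count (788.9). RRA scores the guides within a rank share of 0.25, and its p for enrichment of PMS1 was 0.365 before adjustment. By the edgeR test of single guides 1 PMS1 guide was higher in SETD2-mutant cells. It was HZD_DDR_1307, with 524 and 822 counts in SETD2-mutant cells, 560 and 482 in parental cells and 637 and 533 in the library (adjusted p = 0.0163 by edgeR).

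Over the 4 genes, both SETD2-mutant samples were above both parental samples for 3 (MSH6, PMS2 and PMS1), a pattern that 26.9% of all genes showed, while 38.9% showed the opposite. Over the 40 guides, 19 had both SETD2-mutant samples above and 7 had both below, and 29.4% and 29.8% of all guides did so. Before adjustment RRA gave a p under 0.05 for enrichment for 2 genes, MSH6 and PMS2, as for 6.84% of all genes. For depletion it did so for 0 genes, against 7.53% of all genes. Other tests at gene level called more genes of every kind. The limma test on gene means called MSH6 (0.20, adjusted p = 0.0414), PMS2 (0.20, adjusted p = 0.0344) and PMS1 (0.19, adjusted p = 0.0366) higher, as it did 12.6% of all genes, and 22.1% lower. Its spread between samples was pooled over all 3 groups, although the library does not enter a difference between the lines. The library samples varied least, with a chi-square per degree of freedom of 1.37, against 12.9 in SETD2-mutant and 14.1 in parental cells. These limma calls and intervals thus lean on the small spread of the library. The 95% intervals were 0.056 to 0.34 for MSH6, 0.065 to 0.34 for PMS2 and 0.059 to 0.32 for PMS1. These intervals hold the spread between samples and not that among guides. The SE over guides was larger than the limma SE for each: 0.109 against 0.0587 for MSH6, 0.157 against 0.0572 for PMS2 and 0.0735 against 0.0554 for PMS1. The edgeR test on counts summed over guides called the same 3 genes higher, as it did 20.0% of all genes.

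Of the fits that left out 1 of the 6 samples, each of these 3 limma calls was lost in 5, with adjusted p up to 0.126 for MSH6, 0.115 for PMS2 and 0.124 for PMS1. The exceptions were MSH6 without parental replicate 2 (0.0383), and PMS2 (0.0238) and PMS1 (0.0369) without SETD2-mutant replicate 2. The differences themselves ranged from 0.15 to 0.24 for MSH6, 0.16 to 0.24 for PMS2 and 0.17 to 0.22 for PMS1. Over all genes the higher calls numbered 894 with all samples and 544 or 541 without a library replicate. Scaling on the dummyguide guides, which lowered the median of all genes by limma to −0.19, left differences of 0.049 for MSH6, 0.055 for PMS2 and 0.045 for PMS1, with adjusted p of 0.543, 0.460 and 0.523.

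**Figure D2:**
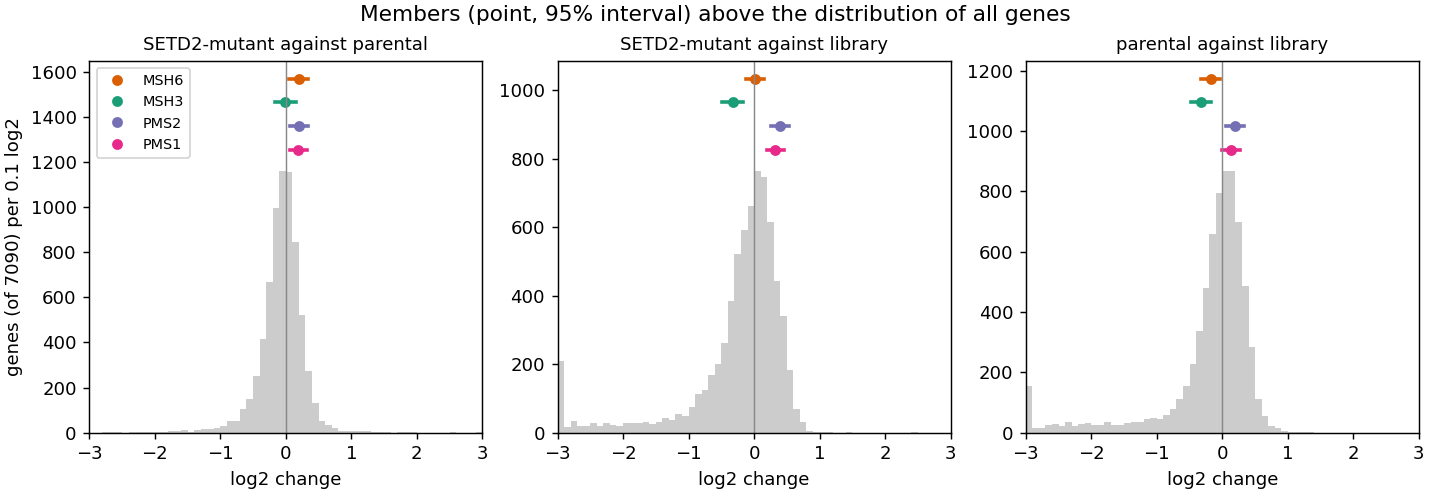
Change on the log2 scale (horizontal axis) of all 7090 genes as a histogram (vertical axis, genes per 0.1 log2, with genes beyond −3 or 3 in the outermost bins), and above it the 4 mismatch repair genes as the limma estimate (point) with its 95% interval (bar). The bars hold the spread between samples and not that among guides. By mean over guides, the members lie between the 23.4th percentile of all genes (MSH3, parental against library) and the 91.0th (PMS2, SETD2-mutant against library).

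Setting SETD2-mutant cells against the library asks how guide abundance in that line after 12 doublings differed from the library, relative to other genes. The stage of the library is not described, so the change cannot be assigned to the doublings alone. PMS2 stood at 0.40 (SE 0.228), PMS1 at 0.33 (SE 0.154), MSH6 at 0.020 (SE 0.118) and MSH3 at −0.32 (SE 0.241). RRA called 0 of the 4 enriched and 0 depleted, against 1.11% and 9.06% of all genes. PMS2 came closest, with edgeR and RRA giving it an adjusted p of 0.0523. It passed the threshold with library totals in place of TMM factors (0.0489), with only the 2 groups in the fit (0.0459), without parental replicate 1 (0.0488) and without SETD2-mutant replicate 2 (0.0393). With dummyguide scaling PMS2 stood at −0.52, where the median of all genes was −0.97.

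Before adjustment RRA gave PMS2 a p of 0.000597 and PMS1 a p of 0.00229 for enrichment, and 10.3% of all genes were under 0.05. It gave 0 of the 4 genes a p under 0.05 for depletion, against 12.0% of all genes. By limma on gene means PMS2 (0.40, adjusted p = 0.00108) and PMS1 (0.32, adjusted p = 0.00235) were higher, as were 23.7% of all genes. MSH3 was lower by limma (−0.33, adjusted p = 0.00447), as were 38.1% of all genes. These 3 limma calls held in each of the 6 fits that left out 1 sample, with adjusted p of at most 0.0180, 0.0420 and 0.0435. With dummyguide scaling limma placed PMS2 at −0.52 and PMS1 at −0.60, where the median of all genes was −0.98 and 7062 of 7090 genes were called lower. The edgeR test on summed counts called the same genes, PMS2 and PMS1 higher and MSH3 lower, against 30.2% of all genes higher and 32.7% lower.

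Setting parental cells against the library asks the same of the parental line. MSH3 stood at −0.32 (SE 0.192), MSH6 at −0.18 (SE 0.114), PMS1 at 0.13 (SE 0.179) and PMS2 at 0.20 (SE 0.206). RRA called 0 of the 4 enriched and 0 depleted, against 1.11% and 9.90% of all genes. Before adjustment RRA gave PMS1 a p of 0.0122 and PMS2 a p of 0.0147 for enrichment, and 9.39% of all genes were under 0.05. For depletion 0 were, against 12.1% of all genes. By limma on gene means MSH3 (−0.32, adjusted p = 0.00578) and MSH6 (−0.18, adjusted p = 0.0384) were lower, as were 31.4% of all genes, and PMS2 (0.20, adjusted p = 0.0255) was higher, as were 23.5%. PMS1 was not called (adjusted p = 0.0835 by limma, 95% interval −0.00049 to 0.26).

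Leaving out single samples ended several of these parental limma calls. MSH6 was not called without library replicate 1 (adjusted p = 0.174), library replicate 2 (0.258) or parental replicate 1 (0.110). PMS2 was not called without the same 3 samples (0.215, 0.143 and 0.0760). MSH3 was not called without library replicate 2 (0.0555). The changes ranged from −0.23 to −0.13 for MSH6, 0.17 to 0.22 for PMS2 and −0.37 to −0.28 for MSH3 over these fits. Over all genes the calls numbered 2223 lower and 1665 higher with all samples, and 1569 lower and 755 higher without library replicate 1. The edgeR test on summed counts called MSH6 and MSH3 lower, against 30.3% of all genes, and PMS2 higher, against 29.5%. With dummyguide scaling edgeR and RRA called MSH6 depleted at −0.95 (adjusted p = 0.00784), as 633 of 7090 genes, where the median of all genes was −0.79, and the changes of PMS2 and PMS1 turned to −0.58 and −0.64. The comparisons with the library share the library samples, so the values of the lines are given side by side and are not independent of each other.

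Against the library, the spread of guides within a gene was at the 59.4th percentile of all genes or lower for each of the 4 in both lines, and for MSH6 at the 5.71st in SETD2-mutant and the 7.17th in parental cells. By mean library count each of the 4 was at the 87.6th percentile of genes or higher, and the part of depth in the spread was not tested. Of the MSH3 guides, HZD_DDR_1040 and HZD_DDR_1046 fell in both lines, and the other 8 lay between −0.57 and 0.29 in SETD2-mutant and between −0.54 and 0.29 in parental cells. HZD_DDR_1040 had 250 and 306 counts in SETD2-mutant cells, 356 and 355 in parental cells and 1106 and 988 in the library, a log2 change of −1.58 in SETD2-mutant and −1.51 in parental cells. HZD_DDR_1046 had 202 and 338 counts in SETD2-mutant cells, 463 and 477 in parental cells and 1212 and 1079 in the library, a log2 change of −1.78 in SETD2-mutant and −1.23 in parental cells. The adjusted p of these 4 changes by edgeR ranged from 0.000108 to 0.000574. The median over the 10 MSH3 guides was 0.024 in SETD2-mutant and −0.13 in parental cells, against means of −0.32 in each.

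The cut sites of the MSH3 guides were not analysed here. The 16 other measured genes within 5 Mb of MSH3 had a median change from library of −0.27 in SETD2-mutant cells and −0.11 in parental cells. Relative to them MSH3 stood at −0.040 in SETD2-mutant and −0.21 in parental cells. The part of the region in the MSH3 values was not tested.

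The guides of PMS1 and PMS2 also split, in both directions. Of the PMS1 guides 6 were above library and 2 below it in all 4 cell samples. The 2 low guides were HZD_DDR_1300, with 276 and 351 counts in SETD2-mutant cells, 293 and 304 in parental cells and 630 and 514 in the library, and HZD_DDR_1305, with 524 and 863 counts in SETD2-mutant cells, 692 and 573 in parental cells and 1169 and 1094 in the library. The median over the 10 PMS1 guides was 0.52 in SETD2-mutant and 0.43 in parental cells, above the means of 0.33 and 0.13.

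Of the PMS2 guides 5 were above library and 3 below it in all 4 cell samples. HZD_DDR_1317 rose in both lines, with 2184 and 3169 counts in SETD2-mutant cells, 2457 and 2320 in parental cells and 1384 and 1325 in the library. HZD_DDR_1318 rose more in parental cells, with 692 and 876 counts in SETD2-mutant cells, 1543 and 1351 in parental cells and 554 and 494 in the library. Its difference between the lines was −0.60 (adjusted p = 0.00732 by edgeR), the lowest of the PMS2 guides. HZD_DDR_1316 had the highest difference between the lines, 0.86 (adjusted p = 0.00486 by edgeR), with 757 and 973 counts in SETD2-mutant cells, 664 and 504 in parental cells and 599 and 598 in the library. The median over the PMS2 guides was 0.79 in SETD2-mutant and 0.14 in parental cells.

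By the edgeR test of single guides against library, 7 PMS1, 6 PMS2, 3 MSH6 and 0 MSH3 guides were higher in SETD2-mutant cells, and 2 guides of each of the 4 genes were lower. Over all guides 22.2% were higher and 23.8% lower. In parental cells 6 PMS1, 3 PMS2, 0 MSH6 and 0 MSH3 guides were higher, and 19.0% of all guides were. Lower in parental cells were 4 MSH6, 3 MSH3, 2 PMS2 and 2 PMS1 guides, and 21.2% of all guides.

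**Figure D3:**
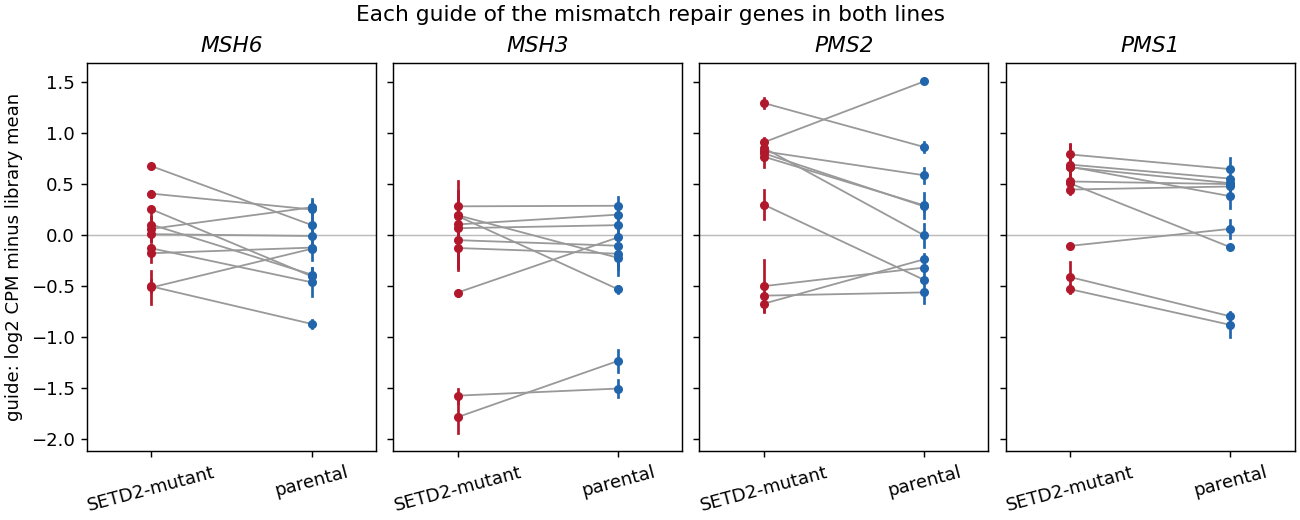
Log2 CPM minus library mean of each guide (vertical axis) in SETD2-mutant and parental cells, with a point for the mean of the 2 samples, a vertical bar from one sample to the other and a line joining the same guide in both lines. The 2 low MSH3 guides lie far below the other 8 in both lines, and 2 PMS1 guides lie below the rest.

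The dummyguide guides, whose meaning the labels do not state, had a median change from library of 0.87 in SETD2-mutant and 0.68 in parental cells. All 4 genes had a mean below these medians in both lines. The 1536 guides with the name prefix HZD_CTRL, which fall under 73 gene names, had medians of 0.029 in SETD2-mutant and 0.0025 in parental cells. The 456 with the prefix HZD_CTRLe, which fall under 46 gene names, had medians of −4.02 and −3.48. Scaling on either was not run. The signs of the PMS2 and PMS1 changes turned with dummyguide scaling, which shifts all genes nearly alike. Each change was above the median of all genes with TMM factors. The same held with dummyguide scaling, but such a shift leaves the position relative to the median in place, so this is no second test. Relative to that median PMS2 stood at 0.45 and PMS1 at 0.38 in SETD2-mutant cells and at 0.21 and 0.15 in parental cells, with TMM factors and with dummyguide scaling alike.

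Mismatch repair shares its later steps with replication. Of 14 measured genes of mismatch excision and resynthesis (EXO1, MLH3, HMGB1, LIG1, PCNA, POLD1, the 5 clamp loader subunits RFC1 to RFC5 and the 3 RPA subunits), RRA called 12 depleted in SETD2-mutant and 13 in parental cells and 0 enriched in either. Over all genes RRA called 9.06% depleted in SETD2-mutant and 9.90% in parental cells, and 1.11% enriched in each. The median change of the 14 genes was −2.65 in SETD2-mutant and −2.33 in parental cells. PCNA, the sliding clamp, stood at −3.57 (SE 0.321) in SETD2-mutant and −3.68 (SE 0.525) in parental cells. RFC4, of the clamp loader, stood at −2.71 (SE 0.365) in SETD2-mutant and −2.53 (SE 0.345) in parental cells, and RFC5 at −2.63 (SE 0.324) in SETD2-mutant and −2.33 (SE 0.293) in parental cells. RFC3, of the same complex, stood at −5.35 (SE 1.04) in SETD2-mutant and −4.64 (SE 0.580) in parental cells. RPA1, the large subunit of the single-strand binding complex, stood at −3.03 (SE 0.474) in SETD2-mutant and −2.91 (SE 0.387) in parental cells. For these values edgeR and RRA gave an adjusted p of at most 4.88e-06. RFC3 and PCNA had guides at 0 counts in SETD2-mutant samples, so the size of their fitted changes depends on the prior count.

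EXO1 and MLH3 were singled out after their values were seen, as the nuclease of mismatch excision and as a MutL gene outside the replication machinery. EXO1 stood at −0.98 and −0.76 in SETD2-mutant cells and at −1.08 and −1.24 in parental cells, and RRA called it depleted in parental cells (adjusted p = 0.0178) and not in SETD2-mutant cells (adjusted p = 0.193). The difference between the lines was 0.28 for EXO1, not called by RRA (adjusted p = 0.918) and higher in SETD2-mutant cells by limma (adjusted p = 0.0491). By limma EXO1 was lower than library in both lines (adjusted p = 0.000231 in SETD2-mutant and 6.61e-05 in parental cells). MLH3 stood at 0.23 and 0.18 in SETD2-mutant cells and at 0.074 and 0.012 in parental cells, and RRA called it in neither line (adjusted p = 1 by edgeR and RRA in each direction). Limma placed it higher in SETD2-mutant cells than in library (0.20, adjusted p = 0.0163).

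Between the lines RRA called 0 of these 14 genes, against 1.28% of all genes depleted and 1.03% enriched. Of the 14, 7 had a change below 0 and 7 above. Limma called 3 of the 14 lower, against 22.1% of all genes, and 3 higher, against 12.6%. The lowest RRA p was that of RFC1, at 0.20 (SE 0.249), followed by RPA3 at −0.26 (SE 0.339), POLD1, the catalytic subunit of polymerase delta, at −0.44 (SE 0.384), and RPA2 at 0.71 (SE 0.182). The adjusted p of these 4 by edgeR and RRA ranged from 0.479 for RFC1 to 0.773 for RPA2, which limma placed higher in SETD2-mutant cells (0.64, adjusted p = 0.00366). The median over the 14 genes was −0.0014, against 0.19 over the 4 mismatch repair genes and −0.038 over all genes.

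MSH4 and MSH5, MutS relatives that act in meiotic recombination, were called by RRA in none of the 3 comparisons (adjusted p of 0.982 or more by edgeR and RRA in each), with an RRA p under 0.05 in none. MSH4 stood at −0.0034 and 0.058 in SETD2-mutant cells and at −0.0071 and −0.059 in parental cells. MSH5 stood at −0.36 and −0.33 in SETD2-mutant cells and at −0.35 and −0.34 in parental cells. Limma placed 1 of the 2 genes, MSH5, lower than library in each line. Over all genes it placed 38.1% lower in SETD2-mutant and 31.4% in parental cells.

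**Figure D4:**
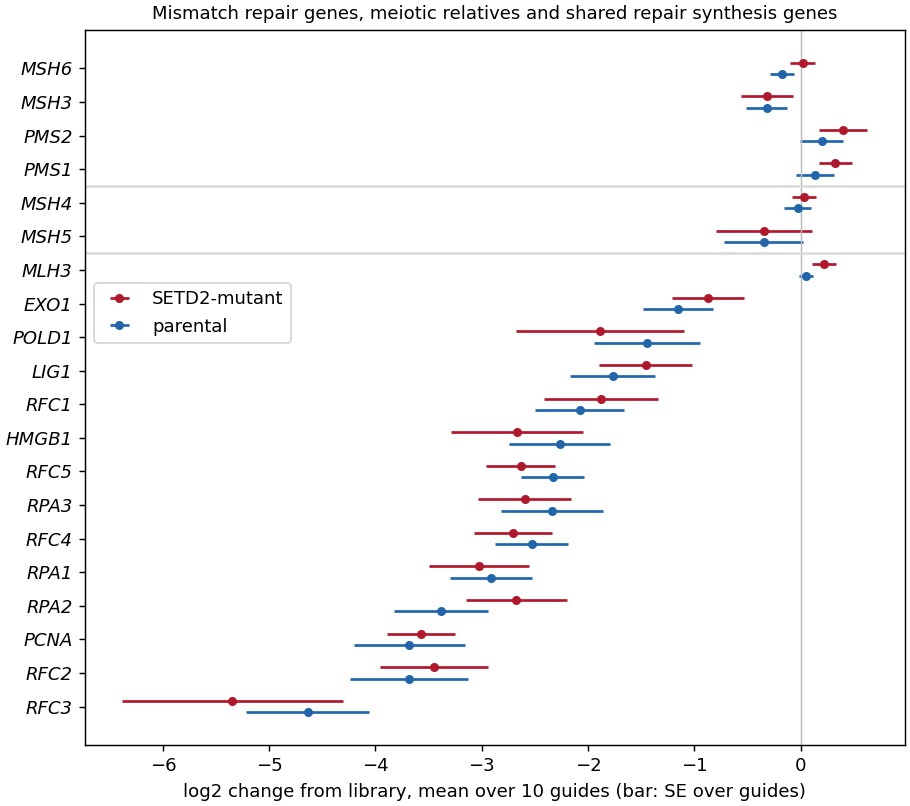
Mean log2 change from library over 10 guides (horizontal axis, bar for the SE over guides) in SETD2-mutant and parental cells, for the 4 mismatch repair genes, the 2 meiotic MutS relatives and the 14 genes of mismatch excision and resynthesis. The 4 genes lie between −0.32 and 0.40, and of the 14 all but MLH3 lie below 0 in both lines.

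Many genes had a pattern like that of each member. Over the 4 cell samples, the Euclidean distance between gene means of log2 change from library placed KIF1A (0.0428) and NTSR1 (0.0466) nearest to MSH6, GRAMD4 (0.0401) and CA4 (0.0408) nearest to MSH3, CHRNG (0.0365) and KRTAP20-2 (0.0450) nearest to PMS2, and CLCN1 (0.0425) and MAN1B1 (0.0503) nearest to PMS1. Within a distance of 0.2 lay 227 genes for MSH6, 162 for MSH3, 292 for PMS2 and 334 for PMS1. In the order of the 4 levels, PMS2 and PMS1 were the highest and MSH3 the lowest in both lines. PMS2 and PMS1 did not overlap in either line, but each gap was smaller than the SE over guides. MSH6 and MSH3 did not overlap either, with a gap above the SE of each gene in SETD2-mutant cells and below the SE of MSH3 (0.192) in parental cells. By the median over guides MSH6 stood at 0.037 and MSH3 at 0.024 in SETD2-mutant cells.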

How the data were processed

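The values are whole-number counts of each guide, deposited by the authors without normalization. They come from guides amplified from genomic DNA and read single-end, per the labels' protocols. MAGeCK and the build hg38 are named in the submitters' processing notes, which state neither a version nor a role. All 6 count columns were assigned to samples by their titles. Guides averaging at least 30 counts in the library samples were retained, counts were scaled with TMM factors, and the 6 samples were fitted by group with edgeR 4.0.16 (glmQLFit, robust, glmQLFTest) in R 4.3.3. One-sided guide ranks were combined to genes by RRA with a rank share limit of 0.25 and an exact null of uniform ranks, since MAGeCK itself was not run. The 7090 genes with 3 or more guides were tested, with Benjamini-Hochberg adjustment over all genes in each direction and a threshold of 0.05. The change of a gene is the mean of the guides' edgeR log2 fold changes. limma 3.58.1 tested gene means of log2 CPM (prior count 2), and values per sample are on that scale. Its tests and intervals hold the spread between samples, pooled over the groups, and not the spread among guides. The edgeR and RRA steps were run on simulated counts in which all guides of a changed gene moved alike. The set changes were larger than the differences of the members between the lines, so calling of differences that small was not tested. Alternatives covered scaling (also DESeq2 1.42.0 size factors), the filter, the tests, the rank limit, a replicate block and samples left out, and limma with a sample left out or dummyguide scaling was added after seeing the data. Same-numbered samples did not deviate together over the guides (correlations of −0.0050, −0.0025 and −0.0050), which does not exclude that they were handled together. The main fit did not pair them.

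The members and lists were chosen with earlier results of these data known. Named genes are the 4 members, SETD2, NSD1, up to 4 genes per list with the lowest RRA p, and the 2 nearest genes of each member, while EXO1 and MLH3 were added after their values were seen. POLD2, POLD3 and POLD4 were listed and are not analysed here. Coordinates are from a RefSeq table of GRCh38.p14. Guide sequences and cut sites were not analysed here. A gene that the rule also names is not reported here.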

Additional observations from a re-analysis of the deposited data

How the results depend on the processing

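Each of the 12 changes (4 genes in 3 comparisons) was recomputed under 19 alternatives, 228 values in all. Of the 204 that carry a test, 168 kept direction and side of the threshold, 23 were called only under the alternative and 13 turned. Of the 24 without a test, 9 moved by less than the spread between replicates and 3 turned. No gene was called in the main setting, so no call was lost. Limma on gene means called MSH6 (0.20), PMS2 (0.20) and PMS1 (0.19) between the lines, MSH6 (−0.18), MSH3 (−0.32) and PMS2 (0.20) in parental and MSH3 (−0.33), PMS2 (0.40) and PMS1 (0.32) in SETD2-mutant cells. Summed counts called the same 9, at 0.22, 0.26 and 0.17, at −0.27, −0.36 and 0.25, and at −0.32, 0.51 and 0.28, and turned MSH6 in SETD2-mutant cells to −0.048. PMS2 in SETD2-mutant cells passed with library totals (0.39) and with only the 2 groups (0.39). Dummyguide scaling called MSH6 in parental cells (−0.95) and turned MSH3 between the lines (−0.15), PMS2 and PMS1 in parental (−0.58 and −0.64) and MSH6, PMS2 and PMS1 in SETD2-mutant cells (−0.90, −0.52 and −0.60), as it did by limma (−0.58, −0.64, −0.90, −0.52 and −0.60), since it lowers all genes. MSH3 between the lines, near 0, also turned with DESeq2 per guide (−0.00047), limma (−0.0047), the replicate block (−0.0022) and the median over guides (−0.016), and the replicate block changed no call. Relative to genes within 5 Mb, MSH3, PMS2 and PMS1 moved to 0.11, 0.040 and 0.28 between the lines, MSH6, MSH3 and PMS1 to −0.25, −0.21 and −0.094 (turned) in parental and MSH3 and PMS2 to −0.040 and 0.23 in SETD2-mutant cells. The median over guides moved PMS2 to 0.33 between the lines, MSH3, PMS2 and PMS1 to −0.13, 0.14 and 0.43 in parental and to 0.024 (turned), 0.79 and 0.52 in SETD2-mutant cells.

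With 1 sample left out, the changes ranged from −0.071 to 0.053 for MSH3 between the lines, from −0.0012 to 0.038 for MSH6 and from 0.36 to 0.44 for PMS2 in SETD2-mutant cells, and by limma from −0.063 to 0.054 for MSH3 between the lines and from −0.0010 to 0.035 for MSH6 in SETD2-mutant cells. The cause of these moves was not tested. With 2 samples a group that share a transduction, a gene that was not called is not shown to be unchanged.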
